A study of Mus musculus with 16 samples.

Results

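Ppp1r10, Wdr82, Ppp1ca, Ppp1cb and Ppp1cc encode the PNUTS scaffold, the WD-repeat protein WDR82 and the catalytic subunits α, β and γ of protein phosphatase 1 (PP1), the proteins that join TOX4 in the PTW/PP1 phosphatase complex. All 5 genes were taken by symbol from the count tables of DP and CD8 thymocytes, which list 24984 and 24974 genes. Each of the 5 was found in both tables, and each passed the filter on low counts in both.

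PP1 is a serine/threonine phosphatase whose catalytic subunits gain their targets by binding regulatory proteins. PNUTS brings PP1 to chromatin and is the scaffold to which WDR82 and TOX4 bind. In the nucleus this complex removes phosphate from RNA polymerase II and from the elongation factor SPT5 near the ends of genes, and WDR82 is also part of the SET1 histone methyltransferase complexes. TOX4 is an HMG-box protein that was first known as a partner of PNUTS.

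The study compared thymocytes of control mice, whose Tox4 alleles are both floxed (labelled Tox4;F/F), with those of conditional knockout (cKO) mice that also carry Lck-cre (labelled Tox4;F/F;Lck+ in DP and Tox4;F/F;Lck-cre in CD8). The floxed alleles, with exons 4 to 6 between the loxP sites, are thus shared by controls and cKO, and Cre is driven by the proximal Lck promoter, which is active from an early stage of T cell development. The replicates are described as biological replicates and not stated to be separate animals, so errors and p-values describe the spread between these samples. The mice were sex-matched littermates, 6 to 8 weeks old, of the C57BL/6 background in which the floxed allele was made. CD4+CD8+ thymocytes (DP) came from 3 control and 3 cKO samples and CD8 thymocytes from 5 control and 5 cKO samples, 16 in all. The labels of the control mice name no Cre, so an effect of Cre itself cannot be told apart from the loss of Tox4. Polyadenylated RNA was sequenced with strand kept, and the tables hold fragments counted per gene. Total counts ran from 16524506 to 18484568 in DP control samples, from 14583336 to 25981683 in DP cKO, from 9420085 to 13530783 in CD8 control and from 8514135 to 11828492 in CD8 cKO.

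The targeted gene was examined first. Tox4 was at 153.9, 172.0 and 180.3 normalized counts (CPM, counts scaled to library size by the TMM method within each cell type) in DP control samples 1 to 3. In DP cKO samples 1 to 3 it was at 132.6, 141.2 and 131.2 CPM. All 3 DP cKO samples thus lay below all 3 controls. CD8 control samples 1 to 5 had 197.0, 187.8, 200.1, 201.4 and 178.0 CPM of Tox4. In CD8 cKO samples 1 to 5 the values were 168.6, 185.4, 176.0, 233.6 and 164.1 CPM. The groups overlapped in CD8, and the library labelled CD8 cKO replicate 4 was above every CD8 control. The table counts fragments over the whole gene, of which only the floxed exons are deleted, so whole-gene counts check the labels only in part. The log2 fold change of Tox4 was −0.32 ± 0.11 (SE; 95% interval −0.57 to −0.07) in DP and −0.06 ± 0.098 (−0.27 to 0.15) in CD8, with adjusted p = 0.381 and 0.979 by the quasi-likelihood test of edgeR, so neither passed the threshold of 0.05. In CD8 it was −0.15 without the library labelled CD8 cKO replicate 4 and −0.014 without CD8 cKO replicate 5, and it passed in neither case.

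Several markers fitted the labelled cell types, and others did not set them apart in that way. Cd4, the co-receptor lost on CD8 cells, averaged 1675 TPM (counts per transcript length, scaled to one total in every sample) in DP control samples and 30.7 TPM in CD8 control samples. Rag1, which cuts antigen receptor genes in DP cells, averaged 3607 and 25.5 TPM. In the other direction S1pr1, the receptor that guides mature cells out of the thymus, averaged 3.49 TPM in DP control and 780 TPM in CD8 control samples, and Runx3, a transcription factor of the CD8 lineage, 26.0 and 467 TPM. The CD8 co-receptor genes, which DP cells also express, were lower in CD8 controls. Cd8a averaged 1976 TPM in DP control and 1578 TPM in CD8 control samples, and Cd8b1 2961 and 1787 TPM. Cd3e, a T cell receptor complex gene of both cell types, was higher in CD8, at 1955 and 3353 TPM.

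The genes of the complex were present at unequal levels, with the α catalytic subunit far above the rest. In DP control samples the mean level of Ppp1ca was 842 ± 24.0 TPM (SD, n = 3), followed by Ppp1cc at 284 ± 24.0, Wdr82 at 159 ± 7.95, Ppp1cb at 158 ± 25.0 and Ppp1r10 at 74.3 ± 6.64 TPM. Ppp1ca was above 98.9% of the 11744 genes compared there and Ppp1r10 above 73.1%. In CD8 control samples the levels were 630 ± 56.3 (n = 5) for Ppp1ca, 294 ± 33.0 for Ppp1cc, 160.3 ± 25.3 for Ppp1cb, 156 ± 16.6 for Wdr82 and 87.8 ± 12.3 TPM for Ppp1r10. Ppp1ca, Ppp1cc and the pair of Wdr82 and Ppp1cb kept this order in each of the 4 groups with no overlap between neighbouring steps, whereas Wdr82 and Ppp1cb overlapped in every group and could not be ranked. The scaffold gene Ppp1r10 had the lowest mean of the 5 genes in all 4 groups, and in controls of both cell types its range lay below those of the others. In DP cKO samples its range of 94.3 to 129 TPM reached into that of Ppp1cb, at 101 to 147 TPM. In CD8 cKO samples the highest value of Ppp1r10 was above the lowest of Ppp1cb (149.0 TPM) and of Wdr82 (131 TPM), so these ranges overlapped as well.

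All of these genes lie on the plus strand of the mouse genome (build mm10). Ppp1r10 spans bases 35917196 to 35932283 of chromosome 17, Wdr82 bases 106170929 to 106191706 of chromosome 9 and Ppp1ca bases 4192174 to 4195419 of chromosome 19. Both Ppp1cb (32458970 to 32493712) and Ppp1cc (122158275 to 122175273) are on chromosome 5. The genes differ in how far their transcripts can be told from other genes. Of all stretches of 100 bases in the annotated transcripts of Ppp1r10 and of Wdr82, 0% occur in transcripts of another gene, on either strand. The share was 6.70% for Ppp1ca, which overlaps Rad9a on the other strand, 15.4% for Ppp1cb, shared with Gm43312, and 34.6% for Ppp1cc, shared with Ppp1ccb, a gene of nearly the same sequence. The levels of Ppp1cc and Ppp1cb are therefore uncertain, and Ppp1ccb and Gm43312 were not analysed here. Tox4, on chromosome 14, overlaps Mettl3 and Rab2b on the other strand and shares 11.7%.

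The clearest result was a higher level of Ppp1r10, the PNUTS gene, in Tox4 cKO thymocytes of both kinds. In DP control samples 1 to 3 its normalized counts were 126.8, 115.6 and 125.5 CPM. DP cKO samples 1 to 3 had 209.4, 158.6 and 194.2 CPM. Every DP cKO sample was thus above every DP control, and the group means were 122.6 ± 6.11 (SD, n = 3) and 187.4 ± 26.1 CPM (n = 3). The same held in CD8 thymocytes. CD8 control samples 1 to 5 had 154.8, 139.0, 112.9, 113.6 and 122.3 CPM of Ppp1r10. In CD8 cKO samples 1 to 5 the values were 195.4, 195.7, 213.5, 169.1 and 163.4 CPM. All 5 were above the highest control, and the means were 128.5 ± 18.0 (n = 5) and 187.4 ± 20.8 CPM (n = 5). The gap between the CD8 groups was narrow, with CD8 control replicate 1 at the top of the controls and CD8 cKO replicate 5 and the library labelled CD8 cKO replicate 4 at the bottom of the cKO samples. The counts behind these values ran from 1127 to 4946, which gives a counting error of at most 2.98%.

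**Figure D1:**
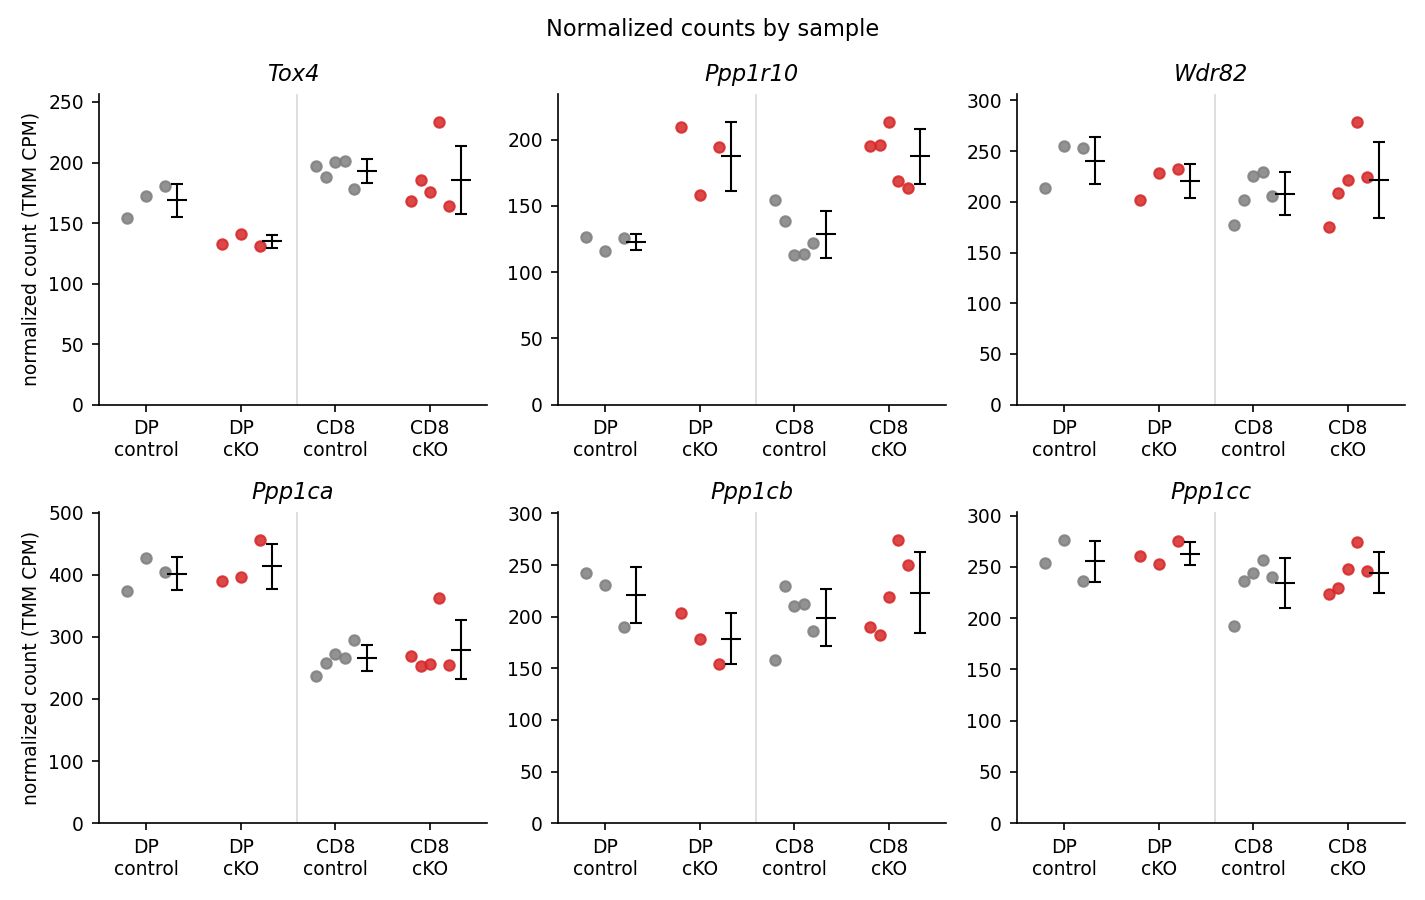
Normalized counts (TMM CPM, vertical axis, scaled separately within DP and within CD8) of Tox4 and the genes of its phosphatase complex; each point is a sample, in order of replicate number, with control in grey and cKO in red, and bars give the mean ± SD of the group. Ppp1r10 is above 158 CPM in every DP and CD8 cKO sample and below 155 CPM in every control, while the other genes of the complex overlap between genotypes.

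In DP the fold change of Ppp1r10 was 1.53 (95% interval 1.25 to 1.87), a log2 fold change of 0.61 ± 0.13 (SE). With edgeR it ranked 96 of 11748 genes by p and did not pass after adjustment (adjusted p = 0.131, higher in 3 of 3 cKO samples than in any control). Only 17 genes, or 0.145% of those tested, passed there. DESeq2, which called 1.56% of genes, gave 0.60 and adjusted p = 0.00683 for Ppp1r10, so that its call in DP was not the same with both tools. With the replicate number as a block edgeR gave adjusted p = 0.0192, though the labels do not state that samples of 1 number belong together. Over 16 alternatives the adjusted p in DP ran from 0.00683 to 0.414. An exact two-sided permutation test of the 3 control against 3 cKO values gave p = 0.1, the smallest it can give. For comparison, 7.87% of genes had every DP cKO sample above every control. In CD8 the fold change was 1.46 (1.24 to 1.71), a log2 fold change of 0.54 ± 0.11. It ranked 18 of 11227 genes with edgeR (adjusted p = 0.0973, higher in 5 of 5 cKO samples than in any control), where 12 genes or 0.107% passed. By DESeq2, which called 0.641% of genes, the log2 fold change was 0.55 and adjusted p = 0.00203. The exact permutation test gave p = 0.00794, the smallest possible for 5 against 5 samples, and 0.855% of genes had all CD8 cKO samples above all controls. Without CD8 control replicate 1 the log2 fold change was 0.62 and adjusted p = 0.0365 with edgeR. Ppp1r10 also passed with edgeR with no filter on low counts (adjusted p = 0.0259) and with the block (adjusted p = 0.0203). Over all 20 alternatives the adjusted p in CD8 ran from 0.00203 to 0.324.

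The same direction in samples with no overlap in DP and in CD8 was found for 0.33% of the 10920 genes compared in both. Because the separate edgeR tests missed the threshold in both cell types, the mean of both changes was also tested with edgeR over all 16 samples, a choice made after the values of Ppp1r10 were seen. This mean log2 fold change was 0.58 ± 0.088 (SE; 95% interval 0.39 to 0.76), a fold change of 1.49, with edgeR adjusted p = 0.00205. Ppp1r10 thus rose in cKO thymocytes by this test, in which 125 genes or 1.03% of 12131 passed, and ranked 20 by p. Wdr82, Ppp1ca, Ppp1cb and Ppp1cc did not pass, with values from −0.07 to 0.06, and DESeq2, with 2.32% of genes called, gave adjusted p = 2.76e-07 for Ppp1r10. The call held in all 25 alternatives, each sample left out in turn included, with adjusted p from 2.76e-07 to 0.011. The change did not differ detectably between the cell types: the difference of the log2 fold changes, CD8 minus DP, was −0.07 with a 95% interval of −0.44 to 0.30 (edgeR adjusted p = 0.981), in a comparison where 0.107% of genes passed. In bulk samples a change in the level per cell and a change in the share of cells that express a gene cannot be told apart.

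The estimates for the partners of PNUTS lay nearer to 0, and none of them passed a test of cKO against control. Wdr82 was at 214.0, 254.9 and 252.6 CPM in DP control samples 1 to 3 and at 201.5, 228.1 and 232.1 CPM in DP cKO samples 1 to 3. In CD8 it ran from 177 to 230 CPM in control samples (median 206) and from 175 to 279 CPM in cKO samples (median 221). These ranges overlap widely, with log2 fold changes of −0.12 (95% interval −0.39 to 0.14) in DP and 0.09 (−0.16 to 0.34) in CD8. The γ subunit gene Ppp1cc had 236 to 276 CPM in DP control and 253 to 275 CPM in DP cKO samples. Its range was 193 to 257 CPM in CD8 control and 224 to 275 CPM in CD8 cKO samples. The groups overlapped, and the log2 fold changes of Ppp1cc were 0.04 (−0.20 to 0.28) in DP and 0.06 (−0.14 to 0.26) in CD8, intervals that also hold small changes in either direction. For the α subunit gene Ppp1ca the values were 374 to 428 CPM in DP control, 390.4 to 455 in DP cKO, 237 to 295 in CD8 control and 254 to 363 CPM in CD8 cKO samples. The highest CD8 value of Ppp1ca was that of the library labelled CD8 cKO replicate 4, whereas the other 4 cKO samples had 254 to 269 CPM and lay within the control range. Its log2 fold changes were 0.04 (−0.21 to 0.29) in DP and 0.07 (−0.16 to 0.30) in CD8. With edgeR none of these 3 genes passed in DP (adjusted p from 0.831 to 0.945) or in CD8 (adjusted p = 0.979 for each), and none had an unadjusted p under 0.05 or passed with DESeq2.

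**Figure D2:**
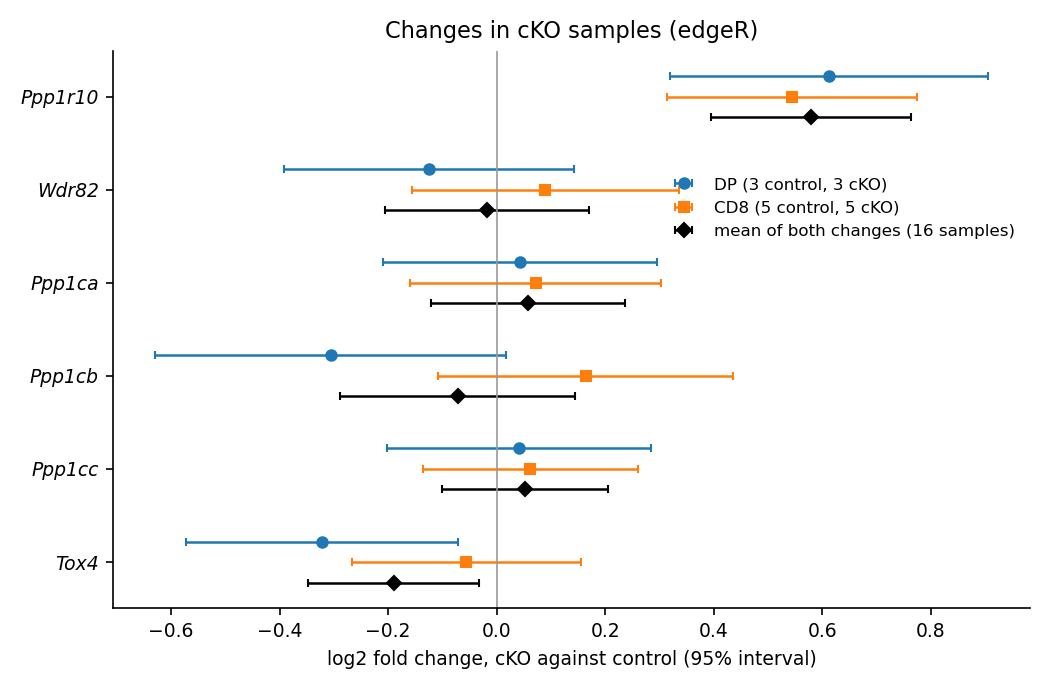
Log2 fold change of cKO against control (horizontal axis, points with 95% intervals, edgeR) for the genes of the complex and Tox4 in DP, in CD8 and for the mean of both changes. The intervals of Ppp1r10 lie above 0 in all 3 comparisons, whereas those of Wdr82, Ppp1ca, Ppp1cb and Ppp1cc all include 0.

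Ppp1cb, which encodes the β subunit that also works in myosin phosphatase, had estimates in opposite directions in the 2 cell types, as Wdr82 did with smaller values. It was at 242.1, 230.7 and 189.9 CPM in DP control samples 1 to 3 and at 203.9, 178.2 and 154.1 CPM in DP cKO samples 1 to 3. CD8 control samples 1 to 5 had 158.4, 229.3, 210.1, 212.2 and 186.0 CPM. In CD8 cKO samples 1 to 5 Ppp1cb was at 190.5, 182.0, 219.5, 274.0 and 250.4 CPM. The groups overlapped in both cell types: 1 DP cKO sample was above the lowest DP control, and 3 of the CD8 cKO samples lay within the control range. The log2 fold change was −0.31 ± 0.14 (SE; 95% interval −0.63 to 0.02) in DP and 0.16 ± 0.13 (−0.11 to 0.43) in CD8. Their difference was 0.47 ± 0.21 (0.03 to 0.90), and with edgeR it did not pass (adjusted p = 0.897). Of the 5 genes 0 passed this test of the difference with edgeR, 1 had an unadjusted p under 0.05, which was Ppp1cb, as had 639 of all 12131 genes, and DESeq2 called 0. The opposite signs of Ppp1cb are thus not shown to be a difference between DP and CD8.

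None of the neighbours of Ppp1r10 on chromosome 17 passed a test of cKO against control. Of the 11 genes within 50000 bases, 8 were tested in both cell types. Their log2 fold changes ran from −0.35 to 0.05 over DP and CD8. With edgeR 0 of the 8 passed in either cell type. At unadjusted p under 0.05 there were 0 in DP and 1 in CD8, beside 1079 of all 11748 genes in DP and 629 of 11227 in CD8, and DESeq2 called 0 in both. Mrps18b, a mitochondrial ribosomal protein gene that starts 756 bases away on the other strand, had log2 fold changes of −0.04 ± 0.15 in DP and −0.15 ± 0.14 in CD8. Dhx16, an RNA helicase gene that ends 24528 bases upstream on the same strand, had 0.01 ± 0.14 and −0.15 ± 0.093. Ppp1r18, which encodes another PP1-binding protein and lies 41600 bases upstream, had −0.16 ± 0.13 and −0.07 ± 0.14. Beside the other genes of the complex, Carns1, 16695 bases upstream of Ppp1ca on the other strand, passed for the mean of both changes (log2 fold change 0.59 ± 0.11, edgeR adjusted p = 0.00926). It encodes carnosine synthase, was picked out after its values were seen, and is separated from Ppp1ca by Tbc1d10c, which had 0.11 in DP and −0.10 in CD8.

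**Figure D3:**
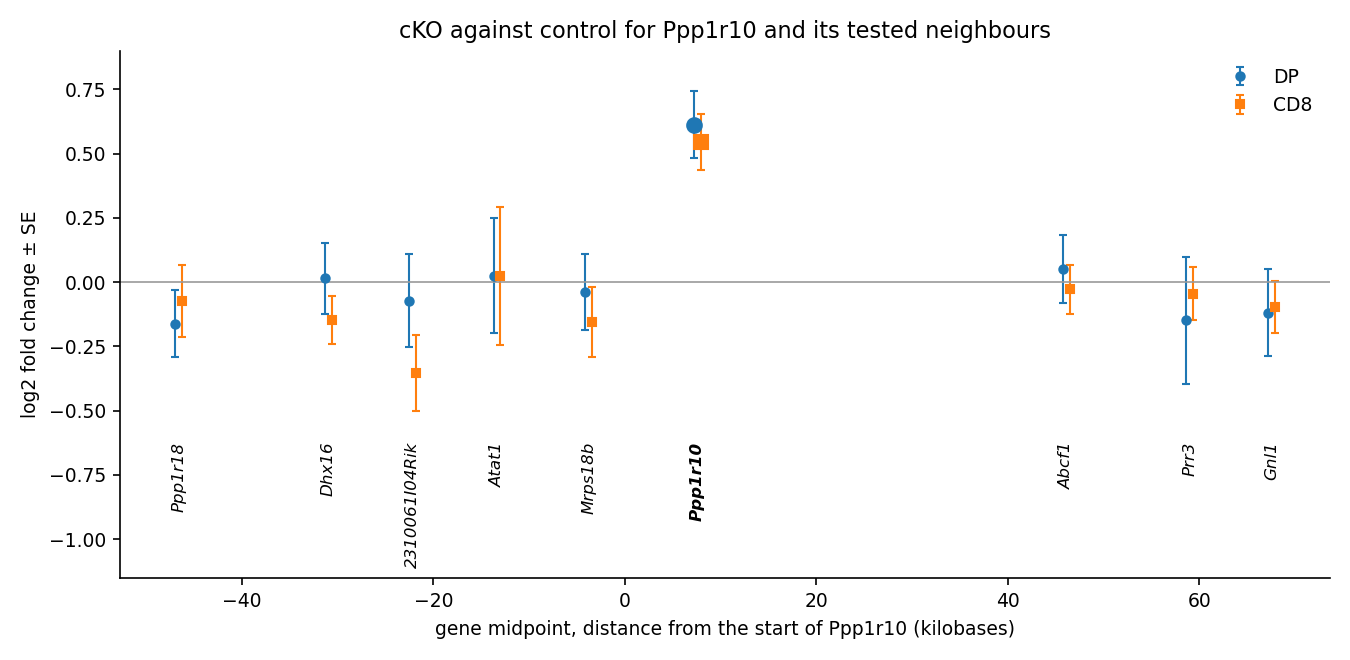
Log2 fold change of cKO against control ± SE (vertical axis, edgeR) for Ppp1r10 and the 8 tested genes within 50000 bases of it, placed by the distance of each gene's midpoint from the start of Ppp1r10 in kilobases, in DP (circles) and CD8 (squares). Ppp1r10 stands at 0.61 and 0.54, and the neighbours lie between −0.35 and 0.05.

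The level of the scaffold can also be set against that of its partners in the same sample. The ratio of Ppp1r10 to Tox4, both in TPM, was 0.777, 0.633 and 0.656 in DP control samples 1 to 3 and 1.49, 1.06 and 1.39 in DP cKO samples 1 to 3. Tox4 was the more abundant transcript in every DP control sample and Ppp1r10 in every DP cKO sample. In CD8 control samples the ratio averaged 0.630 ± 0.0953 (SD, n = 5, range 0.532 to 0.741). CD8 cKO samples 1 to 5 had ratios of 1.09, 0.995, 1.14, 0.682 and 0.939. The library labelled CD8 cKO replicate 4, whose Tox4 was high, was the only CD8 cKO sample within the control range. Per 100 TPM of the 3 catalytic subunits, Ppp1r10 averaged 5.80 ± 0.597 TPM in DP control and 8.81 ± 1.19 TPM in DP cKO samples, with no overlap. In CD8 the means were 8.22 ± 1.91 and 11.4 ± 2.22 TPM, and the ranges overlapped. These ratios are descriptions, with no test. The ratio to Tox4 is not separate from the deletion, since Tox4 is the deleted gene. Its mean was 108 TPM in DP control and 84.5 TPM in DP cKO samples, so both genes moved that ratio the same way in DP. The TPM of Tox4 was scaled by the length of the whole gene in cKO samples too.

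The shares of the PP1 catalytic subunits overlapped between control and cKO samples in both cell types. In DP control samples Ppp1ca made up 65.7% ± 2.36 (SD, n = 3) of the summed catalytic TPM, Ppp1cc 22.1% ± 0.889 and Ppp1cb 12.2% ± 1.53. The shares in DP cKO samples were 67.4% ± 2.19, 22.7% ± 0.392 and 9.93% ± 1.81. The summed level was 1283 ± 59.9 TPM in DP control and 1253 ± 31.9 TPM in DP cKO samples, a gap smaller than the spread among controls. CD8 samples had relatively less of the α subunit, with Ppp1ca at 58.2% ± 2.25 (n = 5), Ppp1cc at 27.1% ± 1.06 and Ppp1cb at 14.7% ± 1.497 in controls. In CD8 cKO samples they were at 57.5% ± 2.65, 26.9% ± 1.73 and 15.6% ± 1.61. The summed level in CD8 was 1084 ± 102 TPM in control and 1171 ± 129 TPM in cKO samples, again with overlap. The share of Ppp1ca was above 63% in all 6 DP samples and below 61% in all 10 CD8 samples.

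**Figure D4:**
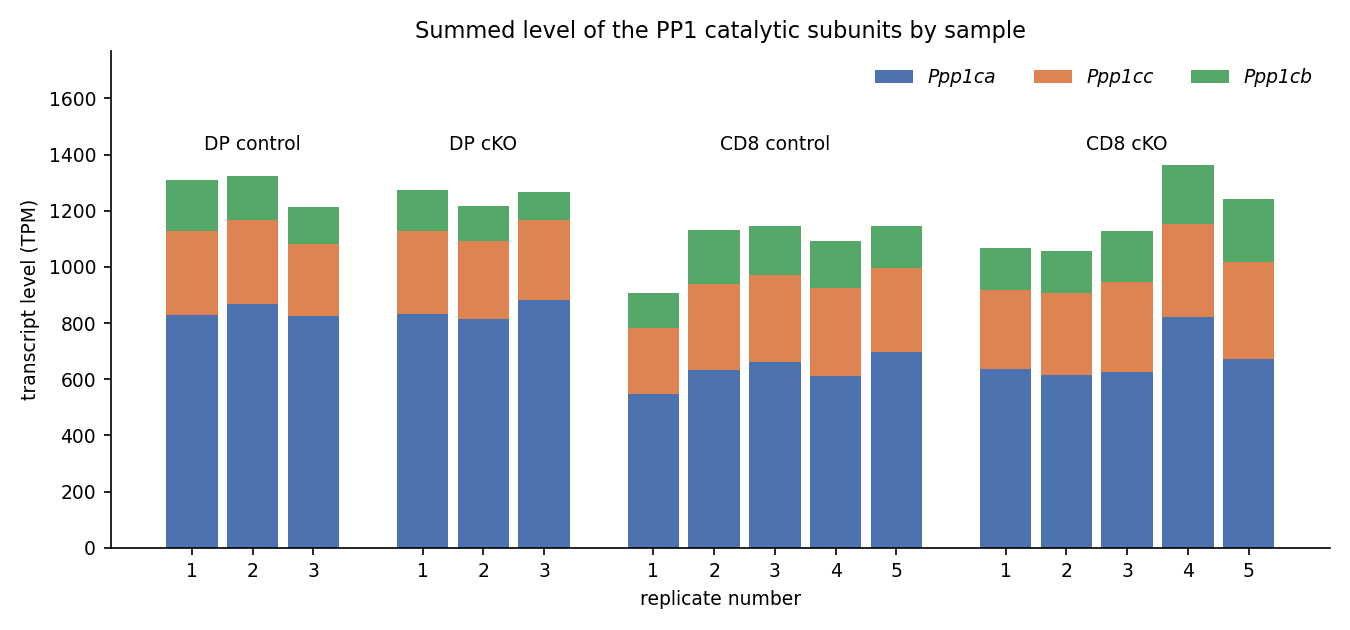
Transcript level (TPM, vertical axis) of Ppp1ca, Ppp1cc and Ppp1cb stacked for each sample, with replicate numbers on the horizontal axis and samples grouped by cell type and genotype. Ppp1ca makes up 63.3% to 69.7% of the sum in DP samples and 54.2% to 60.8% in CD8 samples, of either genotype.

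Levels in DP and CD8 thymocytes were then compared in control samples alone. Ppp1ca was lower in CD8, and the other genes of the complex did not pass. With all samples scaled together, Ppp1ca was at 363.3, 411.0 and 392.1 CPM in DP control samples 1 to 3 and at 239.2, 262.2, 278.2, 273.3 and 302.4 CPM in CD8 control samples 1 to 5. Every CD8 control was below every DP control. The log2 fold change was −0.49 ± 0.097 (SE; 95% interval −0.71 to −0.28), a fold of 0.7101, with edgeR adjusted p = 0.000926, and it passed in every alternative with adjusted p of at most 0.00752. The exact permutation test of 3 against 5 samples gave p = 0.0179, the smallest possible. This is a comparison in which 60.3% of 11758 genes passed, 3515 higher and 3578 lower in CD8, so a passing gene is no rarity. Ppp1r10 had a log2 fold change of 0.17 (95% interval −0.09 to 0.43), Wdr82 −0.11, Ppp1cb −0.05 and Ppp1cc −0.02, with edgeR adjusted p from 0.235 to 0.869. Tox4 was higher in CD8, at 183 to 207 CPM against 149 to 175 CPM in DP. The difference in Tox4 was 0.29 ± 0.092 in log2 (SE; edgeR adjusted p = 0.0156, all 5 CD8 above all 3 DP controls), but without DP control replicate 1 the adjusted p was 0.0525, with no filter on low counts 0.0535 and with no scaling beyond total counts 0.0781, in a range over the alternatives that began at 0.00413. Cell type, purification and sequencing batch cannot be told apart in this comparison.

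Other genes of PP1, of WDR82 and of transcription were then read from lists drawn up for this purpose, to see what surrounds the rise of Ppp1r10. Among 43 genes of other PP1-binding regulators, 37 were tested in DP and 35 in CD8. Few of them stood out. With edgeR 0 passed in either cell type; 4 in DP and 2 in CD8 had an unadjusted p under 0.05, and DESeq2 called 0 in both. Over all genes an unadjusted p under 0.05 was found for 1079 of 11748 in DP and 629 of 11227 in CD8, so these counts are near the background. Their median log2 fold change was 0.04 in DP and 0.0036 in CD8, beside −0.0011 and −0.006 over all genes tested. Over the control samples of both cell types together, the most abundant were Sf3b1, a splicing factor that binds PP1 (−0.06 in DP, −0.0037 in CD8), Iqgap1, a cytoskeletal scaffold (0.08 and 0.11), and Ppp1r9b, which encodes spinophilin (0.24 and 0.07). Within 1 cell type the order differed: Ppp1r14b (mean 307 TPM) was above Iqgap1 (281 TPM) in DP controls. In CD8 controls Ppp1r18 (323 TPM) was above Ppp1r9b (235 TPM).

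Of the 12 genes for SET1 complexes and other partners of WDR82, 0 passed in DP or CD8 with edgeR, and the medians were 0.12 in DP and −0.03 in CD8. At unadjusted p under 0.05 there was 1 in each cell type, near the share over all genes (1079 of 11748 in DP and 629 of 11227 in CD8), and DESeq2 called 1 in DP, where it called 1.56% of all genes, and 0 in CD8. In each case this was Zc3h4, which encodes a zinc-finger protein that acts with WDR82 to restrain transcription outside genes. It was at 256.8, 309.3 and 320.8 CPM in DP control samples 1 to 3 and at 378.4, 414.7 and 477.6 CPM in DP cKO samples 1 to 3. CD8 control samples 1 to 5 had 365.6, 363.8, 318.7, 309.8 and 329.3 CPM of Zc3h4, and CD8 cKO samples 1 to 5 had 394.7, 433.2, 376.3, 437.4 and 370.5 CPM. Every cKO sample was above every control in both cell types, as for Ppp1r10 and for 0.33% of the 10920 genes compared in both. In CD8 the gap was narrow, with the highest control at 365.6 CPM and the lowest cKO sample at 370.5 CPM. Zc3h4 was named after its values were seen. The log2 fold changes were 0.52 ± 0.13 (SE; 95% interval 0.22 to 0.82; edgeR adjusted p = 0.227, DESeq2 0.0399) in DP and 0.25 ± 0.085 (0.07 to 0.44; 0.537 and 0.238) in CD8. For the mean of both changes Zc3h4 passed, at 0.39 ± 0.076 (edgeR adjusted p = 0.0127), and in 24 of 25 alternatives (adjusted p from 0.000172 to 0.0524), the exception being without DP control replicate 1. The most abundant genes of this list over all control samples, Hcfc1 (0.20 in DP and 0.12 in CD8), Srrt (0.13 and −0.15) and Cxxc1 (0.15 and −0.20), did not pass.

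Phosphatases that act on the same substrates without PNUTS gave no call. Of 16 genes for other transcription phosphatases, among them Ssu72, Ctdp1 and subunits of PP2A, 0 passed in DP or CD8 with edgeR, 0 had an unadjusted p under 0.05 and DESeq2 called 0. Over all genes edgeR called 0.145% in DP and 0.107% in CD8, and DESeq2 1.56% and 0.641%, so 0 calls in 16 genes is near the background. An unadjusted p under 0.05 was found for 1079 of all 11748 genes in DP and 629 of 11227 in CD8. The medians of the 16 genes were −0.04 in DP and 0.03 in CD8. The most abundant over all control samples were Ppp2ca (−0.12 and 0.09), Ppp2r1a (−0.04 and −0.04) and Ppp4c (−0.0089 and 0.03), the catalytic and scaffold subunits of PP2A and the catalytic subunit of PP4.

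Among 14 genes for opposing kinases and for substrates of the complex, 1 passed in DP with edgeR and 0 in CD8, where 0.145% and 0.107% of all genes passed. Myc, whose protein is a substrate of PNUTS-bound PP1 and drives cell growth, was the gene that passed. It was at 37.5, 42.6 and 37.1 CPM in DP control samples 1 to 3 and at 68.6, 82.9 and 78.5 CPM in DP cKO samples 1 to 3. All cKO values were above 68 CPM and all control values below 43 CPM. The log2 fold change of Myc was 0.97 ± 0.13 (SE; edgeR adjusted p = 0.0315), but with any sample other than DP cKO replicate 1 left out the edgeR adjusted p was between 0.0780 and 0.208, with log2 fold changes of 0.91 to 1.038. Over all 16 alternatives it ran from 7.36e-08 to 0.208. In CD8 Myc ran from 204 to 333 CPM in control and from 174 to 315 CPM in cKO samples, with overlap. The difference of the log2 fold changes of Myc, CD8 minus DP, was −1.08 ± 0.23 and did not pass with edgeR (adjusted p = 0.0910), though it did with DESeq2 (adjusted p = 0.00708). In CD8 1 of the 14 genes had an unadjusted p under 0.05, near the background of 629 in 11227 genes. DESeq2, which called 0.641% of all genes there, called the same gene. This was Supt4a, a gene for the SPT4 partner of SPT5, with −0.57 ± 0.13 (edgeR adjusted p = 0.161, DESeq2 0.0129). Without CD8 control replicate 2 it passed with edgeR as well (−0.66, adjusted p = 0.0462), and over 20 alternatives its adjusted p ran from 0.0129 to 0.451. The median over the list was −0.0069 in DP and 0.01 in CD8. The most abundant genes over all control samples, besides Supt4a, were Polr2a, for the largest subunit of RNA polymerase II (0.09 in DP and 0.05 in CD8), and Supt5, for SPT5 itself (0.02 and −0.05).

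For the mean of both changes Zc3h4 was the only gene of these 4 lists to pass with edgeR, where 1.03% of 12131 genes passed. A single call in lists of 36, 12, 16 and 14 tested genes is near that background. Among 36 PP1 regulators tested there, 4 had an unadjusted p under 0.05, near the background of 1172 in 12131 genes. DESeq2, which called 2.32% of all genes, called 2 of them, Ppp1r3f (0.77, edgeR adjusted p = 0.0688) and Phactr2 (−0.44, edgeR adjusted p = 0.0572). Other transcription phosphatases had 0 of 16 by either measure. The kinases and substrates had 2 of 14 by both, beside 1172 of 12131 genes at unadjusted p and above the 2.32% of all genes called by DESeq2. The 2 genes were Myc (0.43) and Supt4a (−0.40). For Myc the log2 fold change was 0.97 in DP, while its CD8 groups overlapped, as given above. With edgeR Supt4a passed without CD8 control replicate 2 (−0.45, adjusted p = 0.0321) and with the replicate number as a block (−0.39, adjusted p = 0.0261). Over its alternatives the adjusted p ran from 0.0261 to 0.251.

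**Figure D5:**
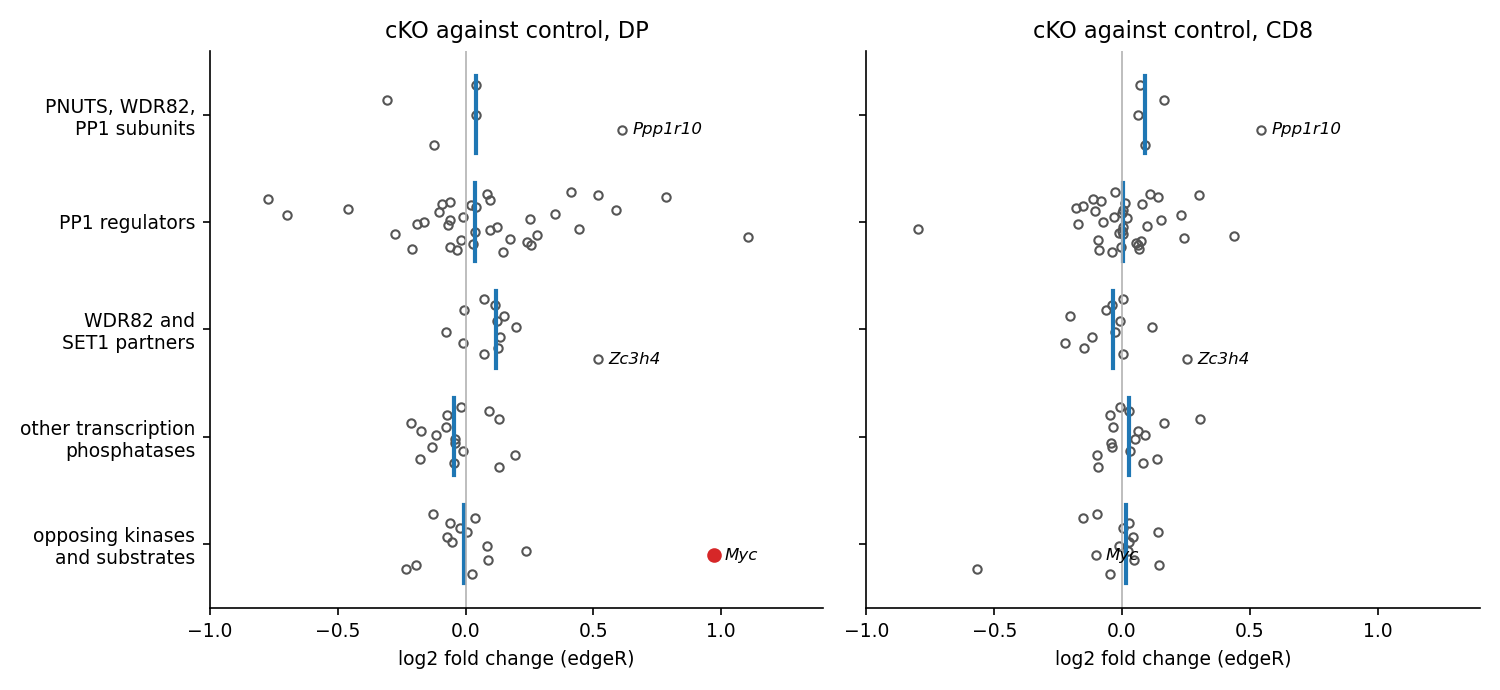
Log2 fold change of cKO against control (horizontal axis, edgeR) for each tested gene of the complex and of the related gene lists, in DP (left) and CD8 (right); blue bars mark the median of a list and a filled red point a gene with adjusted p under 0.05. Myc at 0.97 in DP is the filled point, and Ppp1r10 and Zc3h4 lie to the right of the other genes of their lists in DP.

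Between cell types the same lists held many calls in both directions, near the 60.3% of all genes. In CD8 against DP control samples, edgeR called 12 PP1 regulators higher and 13 lower of 35. The largest changes were in Ppp1r3f (3.21), a glycogen-targeting subunit, Ppp1r1b (2.55), a PP1 inhibitor, Phactr2 (2.06), which binds actin, and Ppp1r14b (−2.05), an inhibitor of myosin phosphatase. Iqgap1 was higher (0.36) and Ppp1r9b lower (−0.84), while Sf3b1 (0.13) did not pass. Of the SET1 and WDR82 partners 3 were higher and 4 lower, led by Bod1 (−0.87), Bod1l (0.82), Dpy30 (−0.81) and Setd1a (0.63), a catalytic subunit of SET1, and Srrt was lower as well (−0.55). Hcfc1 (0.05) and Cxxc1 (0.02) did not pass. Other transcription phosphatases were higher in 3 and lower in 7 of 16 cases, with Ctdspl (−1.46), Ppp4c (−1.09), Ints6 (0.88) and Ppp2cb (−0.73) in the lead and Ppp2ca (−0.38) and Ppp2r1a (−0.36) also lower. Kinases and substrates were higher in 5 and lower in 5 of 14, with Myc (2.84), Mnat1 (−1.34), Cdk12 (0.86) and Cdk9 (−0.85) as the largest and Supt4a (−0.70) lower too. Supt5 was lower (−0.33, edgeR adjusted p = 0.0193), but its adjusted p was 0.0570, 0.0631 or 0.116 without CD8 control replicate 3, DP control replicate 2 or DP control replicate 3. Polr2a (0.50) did not pass with edgeR (adjusted p = 0.0606). It passed in 5 alternatives (adjusted p over all of them from 0.0214 to 0.157), which were DESeq2, no filter on low counts, and leaving out CD8 control replicate 3, 4 or 5.

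The genes whose levels varied most like Ppp1r10 and the PP1 subunit genes from sample to sample were sought after the mean of each group was taken away, so that only differences within a group count. Over 16 samples and 12131 genes, Ppp1r10 was closest to Sh3gl3 (Pearson r = 0.884), whose counts were too low to be tested in CD8, and Mrtfa (0.879). Ppp1ca was closest to Eif3l (0.960) and Eno1 (0.946), Ppp1cb to Ptbp3 (0.960) and Foxn2 (0.954), and Ppp1cc to Racgap1 (0.953) and Slc25a3 (0.937). Each r is 1 of the highest 2 of 12131 values, so a high r is not a finding in itself. These values describe libraries that share depth, preparation and cell make-up, and none of these nearest genes is itself part of the complex or of the related lists.

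Summed levels of several marker lists were lower in DP cKO samples. The summed level of 10 genes for mature CD8 cells, led by Cd8b1, was 7870, 6789 and 6975 TPM in DP control samples 1 to 3 and 6597, 5884 and 6138 TPM in DP cKO samples 1 to 3. Much of this sum is from genes that DP cells express themselves and that the DP list also holds, Cd8a (mean 1976 TPM in DP control and 1411 in DP cKO), Cd8b1 (2961 and 2689 TPM) and Cd3e (1955 and 1828 TPM). Of the genes on the list with lower levels in DP, 4 had larger negative differences there, S1pr1 (log2 fold change −1.36), Ccr7 (−1.07, mean 34.2 TPM in control and 15.8 in cKO), Nkg7 (−0.80) and Il7r (mean 15.7 and 7.71 TPM), and Klf2 (−0.28) and Runx3 (0.13) were nearer to 0. With edgeR 0 of these 6 passed in DP. For 7 myeloid genes the sums were 61.2, 119 and 57.6 TPM in control and 52.9, 49.9 and 57.3 TPM in cKO samples, with Lyz2 or Cd68 the most abundant. The myeloid genes did not all point the same way: Cd68, the most abundant in all DP cKO samples, had 23.4 to 32.8 TPM in cKO and 16.4 to 20.0 TPM in control samples, and Itgam had a log2 fold change of 0.014, while Lyz2, Csf1r, C1qa, C1qb and Adgre1 had values below 0. Sums over 6 stromal genes were 7.94, 8.76 and 12.1 TPM in control and 6.86, 4.96 and 6.51 TPM in cKO samples, with Epcam the most abundant, and Foxn1 and Col3a1 were at 0 in all DP samples. Each of these sums was lower in every DP cKO sample than in every control, for the myeloid genes by a margin of 57.3 against 57.6 TPM. The same was true of 3 NK and gamma-delta T cell genes, all at very low sums of 1.33 to 3.07 TPM, whereas sums of B cell, DP and erythroid genes overlapped. With 3 against 3 samples such separation is not rare for single genes: 7.87% had every DP cKO sample above every control. The share of genes with every DP cKO sample below every control was not computed here. In CD8 no sum separated the genotypes; the nearest was the NK and gamma-delta list, at 7.19 to 12.5 TPM in control and 11.6 to 21.6 TPM in cKO samples, with Sox13 the most abundant gene of all 5 cKO samples. Sox13, a transcription factor gene of gamma-delta T cells, did separate the genotypes in CD8, at 1.79 to 6.30 TPM in control and 7.06 to 13.4 TPM in cKO samples (log2 fold change 1.29, edgeR adjusted p = 0.203). Among all genes, 0.855% had every CD8 cKO sample above every control. Klrb1c, the other gene of this list tested in CD8, had a log2 fold change of 0.17 (edgeR adjusted p = 0.979). In CD8 Cd68 had 28.4 to 39.3 TPM in control and 28.1 to 69.6 TPM in cKO samples, with overlap (log2 fold change 0.52). No gene of any marker list passed with edgeR in DP or CD8. In DP an unadjusted p under 0.05 was found for 4 of 10 tested mature CD8 genes, 5 of 7 myeloid genes (Cd68 among them), 1 of 3 B cell genes and 1 of 10 DP genes, and DESeq2 called 1 mature CD8 and 1 myeloid gene. The shares of mature CD8 and myeloid genes are above those over all genes in DP, 1079 of 11748 at unadjusted p and 1.56% by DESeq2. In CD8 it was found for 1 of 10 mature CD8 genes, 1 of 2 tested myeloid genes and 1 of 2 tested NK and gamma-delta genes, beside 629 of all 11227 genes, and DESeq2, with 0.641% of genes called, called 1 marker, Sox13. The study sorted DP cells, and CD8 thymocytes as TCRβ+CD8+ cells, a step meant to remove cells of other types. The part of such cells in the change of Ppp1r10 was not tested. CD8 control replicate 1 stood apart with the most genes detected, and the change of Ppp1r10 in CD8 was larger without it, as given above.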

How the data were processed

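The authors filtered reads with fastp 0.13.1, aligned them to mouse genome build mm10 with HISAT2 2.1.0 and counted fragments per gene with featureCounts 1.6.1, strand-specifically, and the deposited values are these raw counts. Genes with low counts were removed with filterByExpr, libraries scaled by TMM, and genes tested with the quasi-likelihood F test of edgeR 4.0.16 (R 4.3.3), p-values adjusted over all tested genes by the Benjamini-Hochberg method and called under 0.05. DESeq2 1.42.0 served as the alternative tool. CPM and TPM were computed here, TPM from exonic lengths. Exact two-sided permutation tests compared the difference of group means with that in every split of the samples into groups of the same sizes. The quantiles for the 95% intervals came from scipy 1.17.1. The 5 genes and the lists were chosen with earlier results of these data known. Genes named are, per list, up to 4 with the largest passing change and the 3 highest in mean TPM over all control samples, and the 2 most like Ppp1r10 and each PP1 subunit gene. Zc3h4, which the rule reaches only through the mean of both changes, and the neighbouring and marker genes were named after their values were seen. Alternatives were RLE, upper-quartile and no scaling, DESeq2, no filter, at least 10 counts in every sample, a robust prior, all groups in 1 fit, a replicate block, the paper's thresholds, and each sample left out in turn. The mean of both changes, and the alternative without both DP samples numbered 1, were added after values were seen.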

Additional observations from a re-analysis of the deposited data

Results flagged for a closer look

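Among 38 groups of 5 CD8 values, 6 held a sample that stood far from the rest (a gap to its nearest neighbour over 0.71 of the range of the group). Chance gives this in about 1 in 20 groups, or 1.9 of 38 if the groups were independent, which they are not, since 4 of the 6 come from CD8 control replicate 1. CD8 control replicate 1 had at least 1 count for 17741 genes, beside 13708 to 14194 in the other CD8 controls. It was also apart in the summed level of B cell markers, 60.1 TPM beside 20.1 to 27.7 TPM, of NK and gamma-delta T cell markers, 12.5 TPM beside 7.19 to 8.59 TPM, and of stromal markers, 10.3 TPM beside 3.50 to 5.37 TPM. Ppp1ca was at 363 CPM in the library labelled CD8 cKO replicate 4 and at 254 to 269 CPM in the other CD8 cKO samples. Erythroid markers summed to 0.153 TPM in CD8 cKO replicate 2 and to 0 in the other CD8 cKO samples, where a single value above 0 always gives the widest gap.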

How the results depend on the processing

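Leaving out samples moved small values across 0, and Ppp1r10 kept its direction in cKO against control in DP (16 alternatives), CD8 (20) and their mean (25). In DP its log2 fold change passed with DESeq2 (0.60) and with the replicate number as a block (0.6039, adjusted p = 0.0192), and without each sample in turn it was 0.53 to 0.72 and did not pass. In CD8 it passed with DESeq2 (0.5468), with no filter on low counts (0.5506, adjusted p = 0.0259), with the block (0.5470, adjusted p = 0.0203) and without CD8 control replicate 1 (0.62), the range without each sample being 0.50 to 0.62. The block was not used in the main test, because samples with the same number are not stated to be littermates. After group means were taken away, 2 of 6 DP and 5 of 10 CD8 samples correlated best with the sample of the same number in the other genotype. The number of genes higher and lower in cKO depended on the tool, the block, the samples fitted and, in DP, the filter. In DP it was 10 and 7 with edgeR, 105 and 78 with DESeq2, 84 and 68 with the block, 45 and 29 with no filter on low counts and 17 and 26 with all 4 groups in 1 fit. With edgeR, DESeq2 and the block it was 10 and 2, 50 and 22, and 33 and 11 in CD8, and for the mean of both changes 71 and 54, 148 and 134, and 153 and 138. Without both DP samples numbered 1, chosen after the data were seen, 47 and 26 genes passed in DP, and without both CD8 samples numbered 1 there were 4 and 1 in CD8. With the paper's thresholds on fold change and TPM there were 10 and 1 in CD8. Leaving out 1 sample gave 0 to 6 genes higher and 0 to 2 lower in DP, and 3 to 18 and 1 to 3 in CD8. For CD8 minus DP 13 genes were higher and 0 lower, with DESeq2 28 and 9, with the block 30 and 3, with no filter 15 and 2, with no scaling 8 and 0, with upper-quartile normalization 3 and 0, without both CD8 samples numbered 1 6 and 0, and leaving out 1 sample 0 to 11 and 0. For the mean of both changes leaving out 1 sample gave 48 to 98 higher and 26 to 63 lower. For CD8 against DP controls, leaving out both CD8 samples numbered 1 is the same as leaving out CD8 control replicate 1. With no scaling beyond the total count the median log2 difference of all genes between CD8 and DP controls was −0.117. In that setting 3020 genes were higher and 4132 lower in CD8.

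The other values that changed sign were all small and passed no test, and the cause was not tested. Without both CD8 samples numbered 1 the log2 values were −0.0062 (Ppp1ca), −0.020 (Ppp1cc), 0.091 (Polr2a), 0.025 (Ppp2r1a) and −0.015 (Ppp4c) for CD8 minus DP. In the same setting they were 0.035 (Ppp1cb), 0.050 (Ppp1cc) and −0.013 (Cxxc1) for CD8 against DP controls, and for Ppp4c −0.013 in CD8 and −0.013 for the mean of both changes. Ppp4c in DP was 0.0093 with upper-quartile normalization. For CD8 minus DP, Ppp2r1a was 0.014 with DESeq2, 0.015 with RLE normalization, 0.0020 with no filter on low counts and 0.0070 with no scaling. With no scaling Cxxc1 was −0.084 and Hcfc1 −0.059 for CD8 against DP controls. Leaving out each sample in turn turned the sign of the following genes. In DP cKO against control the ranges were Ppp1ca −0.025 to 0.089, Ppp1cc −0.018 to 0.10, Cxxc1 −0.0053 to 0.27, Ppp2r1a −0.12 to 0.030, Ppp4c −0.11 to 0.051, Sf3b1 −0.14 to 0.015 and Supt5 −0.085 to 0.12. In CD8 cKO against control the ranges were Wdr82 −0.0073 to 0.16, Ppp1ca −0.041 to 0.11, Ppp1cc −0.00083 to 0.10, Polr2a −0.048 to 0.23, Ppp1r9b −0.021 to 0.13, Ppp4c −0.072 to 0.088 and Sf3b1 −0.052 to 0.036. For CD8 minus DP the ranges were Ppp1r10 −0.19 to 0.019, Ppp1ca −0.086 to 0.11, Ppp1cc −0.049 to 0.068, Hcfc1 −0.18 to 0.035, Iqgap1 −0.050 to 0.063, Polr2a −0.14 to 0.14, Ppp1r9b −0.37 to 0.075, Ppp2r1a −0.076 to 0.094, Ppp4c −0.071 to 0.15, Sf3b1 −0.0026 to 0.12 and Supt5 −0.17 to 0.036. For CD8 against DP controls the ranges were Ppp1cb −0.14 to 0.035, Ppp1cc −0.071 to 0.050, Cxxc1 −0.14 to 0.12 and Hcfc1 −0.032 to 0.10. For the mean of both changes the ranges were Wdr82 −0.066 to 0.017, Cxxc1 −0.10 to 0.030, Ppp2ca −0.051 to 0.013, Ppp4c −0.046 to 0.042, Srrt −0.063 to 0.031 and Supt5 −0.066 to 0.039.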
